A study of Homo sapiens with 6 samples.

Results

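The transcriptional coactivators YAP (gene YAP1) and TAZ (gene WWTR1) were examined together with 8 genes that they are known to regulate or that regulate them. These are CTGF and CYR61 (now CCN2 and CCN1), ANKRD1, AMOTL2, AXL, LATS2, AJUBA and NUAK2. Each gene was taken by its symbol, outside alternate assembly scaffolds, which gave 10 rows, all protein-coding, of the 64253 in the gene table. Gene coordinates are those of the table, on build hg38. RNA was sequenced from H69, an immortalised human line of cholangiocytes, which form the lining of the bile ducts. Passage 30 to 32 cells were given recombinant human TGF-beta (10 ng/ml, 16 h) in 3 libraries or vehicle in 3 libraries. All 6 libraries come from this 1 immortalised line. No label says whether replicates were grown as separate cultures, and the p-values therefore cover the spread between these libraries, which may be technical.

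In the Hippo pathway, the kinases MST1 and MST2 activate LATS1 and LATS2, which phosphorylate YAP and TAZ and so keep them out of the nucleus. Unphosphorylated YAP and TAZ enter the nucleus, bind TEAD transcription factors and switch on genes such as CTGF, CYR61 and ANKRD1. In bile duct epithelium YAP is known for its role in duct formation and in the ductular reaction to injury, and TGF-beta signals through SMAD factors that can share promoters with YAP, TAZ and TEAD. Because pathway activity is set largely by phosphorylation and localisation, messenger RNA levels do not measure it.

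The deposited counts summed to between 37205862 and 54160521 reads per library. Levels are given as CPM, the read count scaled to library size with TMM factors, and 1 CPM stood for 35.7 to 56.2 reads. Vehicle replicate 1 stood apart: the chi-square per degree of freedom between library pairs was 24.1 and 26.6 for vehicle 1 against vehicle 2 and 3, and 2.5 to 4.72 for the other pairs within a condition. Summed CPM of 6 epithelial markers was 5698 to 6208 in TGF-beta and 3988 to 4359 in vehicle libraries, with KRT7 the highest. Of the 6, KRT7 and KRT8 were called higher (log2 0.95 and 0.51), EPCAM and CDH1 were called lower (log2 -0.48 and -0.70), and KRT18 and KRT19 were not called, with a median of -0.10. The sum of 5 fibroblast markers was 266 to 286 CPM in TGF-beta and 167 to 186 CPM in vehicle libraries, with LUM at 0 in every TGF-beta library and at most 0.0715 CPM in vehicle. PDGFRB and THY1, which hold most of that sum, were called higher (log2 1.02 and 0.36), PDGFRA was called lower (log2 -0.72) and DCN was not called. Sums of 4 endothelial markers were 10.0 to 11.5 CPM in TGF-beta and 19.3 to 23.8 CPM in vehicle libraries. The part of these marker shifts in the results below was not tested. The 4 leukocyte and 4 hepatocyte markers summed to at most 10.7 and 0.154 CPM in any library, nearly all of the leukocyte sum being CD68. Fewer cells expressing a gene and less RNA per cell cannot be told apart in these bulk samples.

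All 10 genes passed the filter on low counts, and 7 were called at a Benjamini-Hochberg adjusted p below 0.05 in the quasi-likelihood test of edgeR over 20992 genes. CTGF, NUAK2 and LATS2 were higher in TGF-beta, and AXL, WWTR1, AJUBA and AMOTL2 were lower. Of all genes tested, 40.1% were called in either direction, 19.7% higher and 20.4% lower, and 49.1% were called among the 6242 genes at least as abundant as NUAK2, the least abundant of the 10, a comparison chosen after the values were seen. With library totals in place of TMM factors the same 3 and 4 were called higher and lower, while over all genes 12.9% were higher and 34.7% lower. For 8 of the 10 genes the CPM ranges of the 2 conditions were separate, against 52.3% of all genes tested and 61% at that abundance. The median log2 fold change was -0.07 over the 10 genes and -0.01 over all genes tested, so the group as a whole did not move in 1 direction. CTGF was the only one of the 10 to change by at least 2-fold, a size called in 8.37% of all genes.

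**Figure D1:**
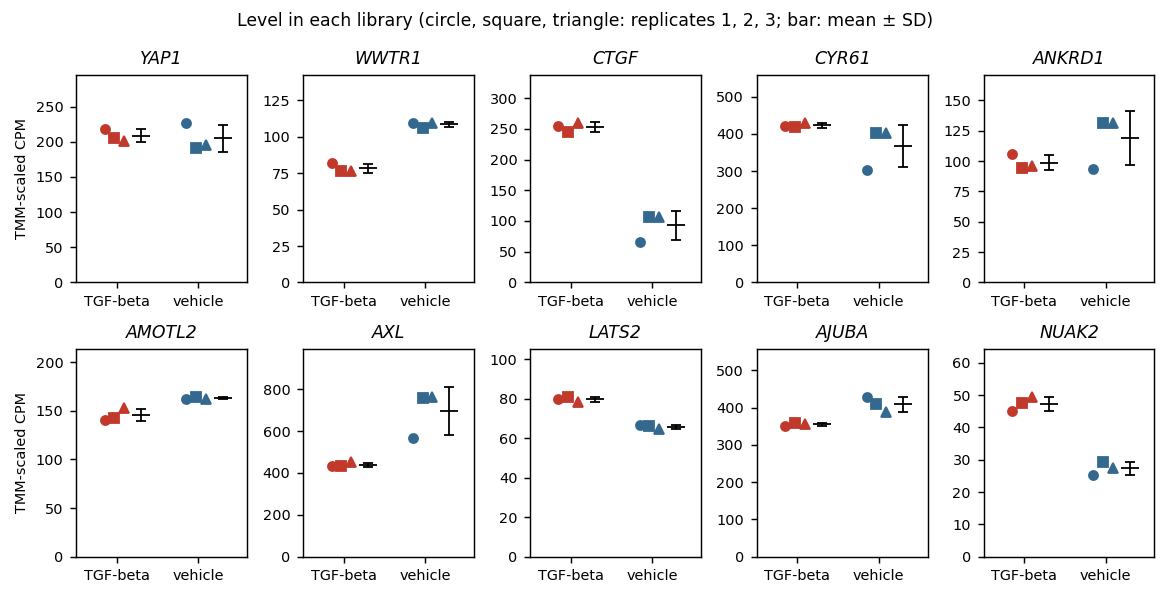
CPM of each of the 10 genes in the 3 TGF-beta libraries (left in each panel) and the 3 vehicle libraries (right), with a bar at the mean and error bars of 1 SD. CTGF stands at 245 to 260.2 CPM in TGF-beta libraries, above the 65.9 to 107 CPM of vehicle, while YAP1 overlaps between conditions.

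The promoters of 3 genes are shown because each holds at least 2 copies of the core TEAD-binding motif in its window. Of these genes CTGF and NUAK2 rose and ANKRD1 did not pass the test. The motif searched was GGAATG on either strand (CATTCC on the printed strand). Sequences are RefSeq promoter bases on GRCh38.p14, 5' to 3' on the gene's strand, restricted to bases outside the gene's span in the table, with TEAD motifs in capitals. The stretches are chr6:131951374-131951622, chr10:90921277-90921337 and chr1:205321756-205321995, all on the minus strand.
CTGF: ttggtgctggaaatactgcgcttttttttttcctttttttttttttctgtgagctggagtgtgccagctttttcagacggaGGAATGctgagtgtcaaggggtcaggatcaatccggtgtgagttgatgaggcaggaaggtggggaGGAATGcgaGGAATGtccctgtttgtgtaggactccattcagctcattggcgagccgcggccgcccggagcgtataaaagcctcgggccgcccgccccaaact
ANKRD1: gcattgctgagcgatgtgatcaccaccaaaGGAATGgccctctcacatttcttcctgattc
NUAK2: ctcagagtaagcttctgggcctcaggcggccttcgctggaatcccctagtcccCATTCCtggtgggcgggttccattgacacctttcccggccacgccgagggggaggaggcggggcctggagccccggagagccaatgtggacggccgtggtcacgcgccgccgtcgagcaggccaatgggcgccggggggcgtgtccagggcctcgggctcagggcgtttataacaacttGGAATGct
In CTGF the motifs lie 169 to 164, 104 to 99 and 95 to 90 bases before the RefSeq gene start, and in NUAK2 they lie 197 to 192 (on the opposite strand) and 18 to 13 bases before it. ANKRD1 has motifs at 220 to 215 and 128 to 123, of which the first is in the printed stretch. Windows of 250 bases before the start were available for 9 of the 10 genes, all except CYR61. Of their 13 windows, 7, from 7 genes, held the TEAD motif, against 11.9% of 35116 RefSeq windows. The genes were listed as known targets or regulators of YAP and TAZ, so this share follows from the choice of genes and is not independent evidence. Of these 7 genes, CTGF and NUAK2 rose, AMOTL2, AXL and AJUBA fell, and YAP1 and ANKRD1 were not called. In AMOTL2, AXL and AJUBA the match lay only in a window inside the gene's span. LATS2, which rose, and WWTR1, which fell, held no TEAD motif. The AP-1 motif was searched in a loose form, TGANTCA with any base at N. This form was in 1 window, that of ANKRD1, as TGATTCA (6.57% of all windows), which lacks the C or G usual at N. The SMAD palindrome GTCTAGAC was in 0 (0.182% of all windows). At so low a share a count of 0 in 13 windows is uninformative, and shorter SMAD motifs were not searched. No match overlapped another motif, and a match is a description of letters, not of binding.

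Of the coactivators, YAP1 (ENSG00000137693, chromosome 11, 102110461 to 102233423) had 219, 206 and 201 CPM in TGF-beta and 227, 192 and 195 CPM in vehicle libraries. The ranges overlapped, and the fit gave a log2 fold change of 0.03 (SE 0.07, Benjamini-Hochberg adjusted p = 0.782 by edgeR). Without vehicle 1, the highest library, it was 0.11 with an adjusted p of 0.0260 by edgeR, in a fit that called 50.4% of all genes. With library totals alone it was -0.10, not called. An antisense RNA, RP11-864G5.3, shares 628 of the exon bases of YAP1 (9.97%) and had counts equal to 14.2% of those of YAP1. Whether reads were counted by strand is unknown from the sources used here, so the reads of such overlapping pairs cannot be told apart.

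WWTR1, which encodes TAZ (ENSG00000018408, chromosome 3, 149517235 to 149736714), had 81.9, 76.5 and 76.2 CPM in TGF-beta and 109.8, 106 and 109 CPM in vehicle libraries. All 3 TGF-beta libraries lay below all 3 vehicle libraries, and each condition was tight, at 78.2 ± 3.21 CPM in TGF-beta and 108 ± 1.90 CPM in vehicle (SD, n = 3). The log2 fold change was -0.47 (SE 0.05, Benjamini-Hochberg adjusted p = 1.72e-05 by edgeR), a fold of 0.721. The antisense gene WWTR1-AS1 overlaps 9.45% of its exon bases and had 7.78% of its count. The ratio of WWTR1 to YAP1 counts per kilobase was 0.280, 0.278 and 0.284 in TGF-beta libraries against 0.361, 0.415 and 0.419 in vehicle libraries. The 2 ranges did not overlap, and the log2 ratio differed by -0.50.

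Among the secreted targets, CTGF (ENSG00000118523, chromosome 6, 131948176 to 131951373), which encodes a matricellular protein that is a profibrotic TGF-beta and YAP target, had 254, 245 and 260.2 CPM in TGF-beta libraries and 65.9, 107 and 106 CPM in vehicle. All TGF-beta libraries were higher than all vehicle libraries, and vehicle 1 was the lowest. The means were 253 ± 7.67 CPM in TGF-beta and 92.8 ± 23.3 CPM in vehicle (SD, n = 3 each), and the fold was 2.72, a log2 fold change of 1.45 (SE 0.21, Benjamini-Hochberg adjusted p = 0.00555 by edgeR). Without vehicle 1 the log2 fold change was 1.25. The antisense gene RP11-69I8.3 shares 8.34% of its exon bases and had 0.416% of its count.

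CYR61 (ENSG00000142871, chromosome 1, 85580761 to 85583962) encodes the closely related CCN1, also a matricellular protein. It had 421, 418 and 431 CPM in TGF-beta libraries and 303, 401 and 401 CPM in vehicle libraries. The ranges did not overlap, although vehicle 2 and 3 lay close below the TGF-beta libraries and vehicle 1 far below. The log2 fold change was 0.20 (SE 0.11, Benjamini-Hochberg adjusted p = 0.198 by edgeR) and 0.08 without vehicle 1. With no filter on low counts the adjusted p by edgeR was 0.0389, in a fit that called 23.4% of all genes. The ratio of CTGF to CYR61 per kilobase was 0.634, 0.615 and 0.634 in TGF-beta libraries and 0.228, 0.279 and 0.277 in vehicle, a log2 difference of 1.27 with no overlap. The 3 other CCN genes tested were all called by edgeR, 1 higher and 2 lower, where 19.7% of all genes tested were higher and 20.4% lower. WISP3 (CCN6) did not pass the filter on low counts. WISP2 (CCN5) rose by 1.17 on the log2 scale, to 4.26 ± 0.0796 CPM in TGF-beta against 1.93 ± 0.796 CPM in vehicle (SD, n = 3 each). WISP1 (CCN4) fell by 0.92 on the log2 scale and NOV (CCN3) by 1.91. NOV was scarce, with counts of 5 to 10 reads in TGF-beta and 14 to 60 reads in vehicle libraries.

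ANKRD1 (ENSG00000148677, chromosome 10, 90912096 to 90921276), a nuclear ankyrin-repeat protein best studied in muscle, had 106, 94.6 and 95.6 CPM in TGF-beta libraries and 93.5, 132 and 132 CPM in vehicle libraries. Vehicle 1 lay below every TGF-beta library, and vehicle 2 and 3 lay above. The log2 fold change was -0.27 (SE 0.15, Benjamini-Hochberg adjusted p = 0.208 by edgeR). Without vehicle 1 it was -0.42 with an adjusted p of 5.29e-09 by edgeR, in a fit that called 50.4% of all genes. Without vehicle 2 or without vehicle 3 it was -0.19, with an adjusted p of 0.430 or 0.454 by edgeR. ANKRD1 was called under no other alternative.

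AXL (ENSG00000167601, chromosome 19, 41219203 to 41261766), a receptor tyrosine kinase for the ligand GAS6, had 432, 431 and 451 CPM in TGF-beta libraries and 566, 760.0 and 764 CPM in vehicle libraries. Every TGF-beta library was below every vehicle library. The means were 438 ± 11.2 CPM in TGF-beta and 697 ± 113 CPM in vehicle (SD, n = 3 each), a log2 fold change of -0.67 (SE 0.12, Benjamini-Hochberg adjusted p = 0.00548 by edgeR) and -0.80 without vehicle 1. Its ligand GAS6 and the related receptor TYRO3 rose, by 0.47 and 1.07 on the log2 scale. The antisense gene GAS6-AS1 shares 7.01% of the exon bases of GAS6 and had 24.9% of its count. MERTK, the remaining receptor of the family, had 4.87, 4.10 and 3.97 CPM in TGF-beta libraries and 2.31, 5.18 and 5.38 CPM in vehicle libraries. Vehicle 1 lay below and vehicle 2 and 3 above the TGF-beta values. MERTK was not called with all 6 libraries (log2 -0.01). It was called lower without vehicle 1 (log2 -0.30, adjusted p = 0.0218 by edgeR), in a fit that called 50.4% of all genes.

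Vehicle 1 differed from the mean of vehicle 2 and 3 by -0.69 (log2) for CTGF, -0.49 for ANKRD1, -0.43 for AXL and -0.40 for CYR61. These sizes sit at the 94.3, 88.9, 85.9 and 84.5 percentiles of all genes tested, and a difference of at least 0.5 was found in 10.8% of them and in 4.82% of genes with at least 5 CPM in vehicle. All 4 were lowest in vehicle 1 among the vehicle libraries. WWTR1, AMOTL2 and LATS2 differed by at most 0.03 in size. Values without vehicle 1 are given beside these genes, and the part of this library difference in the results was not tested.

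**Figure D2:**
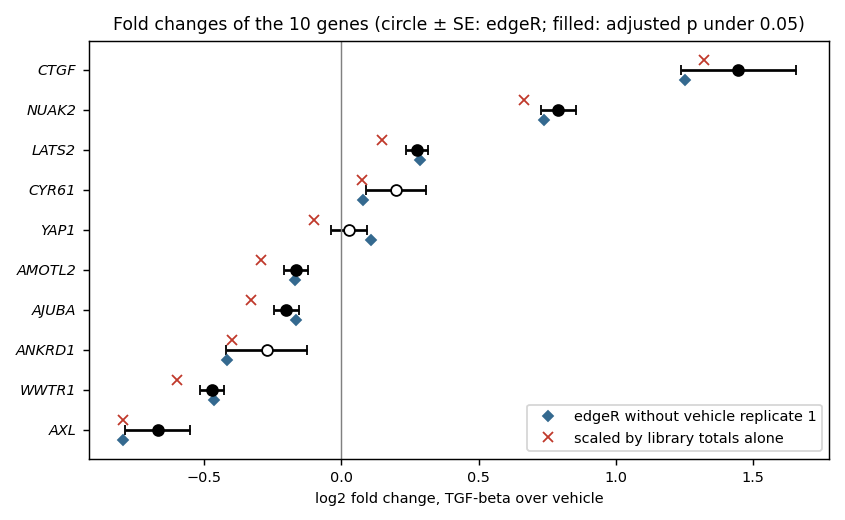
Log2 fold change (TGF-beta minus vehicle) of the 10 genes from the fit of all 6 libraries, with error bars of 1 standard error, filled where called, beside the values without vehicle 1 (diamonds) and with library totals alone (crosses). CTGF and NUAK2 have the highest values and AXL the lowest, and YAP1 lies at 0.03 with alternatives on both sides of 0.

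LATS2 (ENSG00000150457, chromosome 13, 20973032 to 21061547), a kinase that phosphorylates YAP and TAZ and is itself a YAP target, had 79.7, 81.1 and 78.5 CPM in TGF-beta libraries and 66.8, 66.2 and 64.7 CPM in vehicle libraries. The groups did not overlap, and the fold was 1.21 (log2 0.27, SE 0.04, Benjamini-Hochberg adjusted p = 0.000413 by edgeR). Scaled by library totals alone the log2 value was 0.15. Its paralogue LATS1 was not called, with a log2 fold change of 0.10 and an edgeR adjusted p of 0.166. The LATS2 to LATS1 ratio per kilobase was 3.46, 3.53 and 3.61 in TGF-beta and 3.11, 3.06 and 3.18 in vehicle libraries, again without overlap.

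AJUBA (ENSG00000129474, chromosome 14, 22971174 to 22982642), a LIM-domain protein that binds LATS kinases and restrains them, had 350.2, 358 and 357 CPM in TGF-beta libraries and 429, 409 and 387 CPM in vehicle. All TGF-beta libraries were lower, with a log2 fold change of -0.20 (SE 0.05, Benjamini-Hochberg adjusted p = 0.00546 by edgeR), and -0.33 with library totals alone. Its exons share 0.836% of their bases with RP11-298I3.5 on the same strand. The related LIMD1 fell to 61.4 ± 0.923 CPM in TGF-beta against 122.7 ± 17.3 CPM in vehicle (SD, n = 3 each; adjusted p = 0.000154 by edgeR), and the antisense LIMD1-AS1 shares 8.12% of its exon bases. The AJUBA to LIMD1 ratio per kilobase was 12.1, 12.2 and 12.5 in TGF-beta and 8.84, 6.53 and 6.19 in vehicle libraries.

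AMOTL2 (ENSG00000114019, chromosome 3, 134355874 to 134375479), an angiomotin-family scaffold that can hold YAP in the cytoplasm, had 141, 143 and 153 CPM in TGF-beta libraries and 163, 164 and 162 CPM in vehicle. Each TGF-beta value was lower than each vehicle value, but the difference was small, at -0.17 (SE 0.04, Benjamini-Hochberg adjusted p = 0.0120 by edgeR). Without TGF-beta 1 or without TGF-beta 2 the adjusted p by edgeR was 0.0538 or 0.0735, no longer called, and with library totals alone the log2 value was -0.29. On the same strand, RPL39P5 shares 3.12% of the exon bases of AMOTL2 and had 5.37% of its count. AMOT, the founding family member, fell by 2.48 on the log2 scale, to 2.50 ± 0.279 CPM in TGF-beta against 14.0 ± 1.07 CPM in vehicle (SD, n = 3 each). AMOTL1 had a log2 value of -0.17 and an adjusted p of 0.0540 by edgeR. It was called lower without vehicle 1 (adjusted p = 0.00549 by edgeR), with library totals alone (0.00323), with the replicate block (0.0476) and in both fits of RPKM by limma (0.0406 and 0.0413). The AMOTL2 to AMOTL1 ratio overlapped between conditions.

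NUAK2 (ENSG00000163545, chromosome 1, 205302059 to 205321755), an AMPK-related kinase known to promote YAP activity and to be induced by it, had 45.1, 47.5 and 49.5 CPM in TGF-beta libraries and 25.3, 29.3 and 27.4 CPM in vehicle. Every TGF-beta library was higher. The means were 47.3 ± 2.20 CPM in TGF-beta and 27.3 ± 2.03 CPM in vehicle (SD, n = 3 each), and the log2 fold change of 0.79 had an SE of 0.06 (Benjamini-Hochberg adjusted p = 4.84e-06 by edgeR). The paralogue NUAK1 rose by 2.04 on the log2 scale, with 31.4, 30.6 and 30.9 CPM in TGF-beta and 6.13, 7.47 and 8.91 CPM in vehicle libraries. The ratio of NUAK2 to NUAK1 per kilobase was 2.95, 3.19 and 3.30 in TGF-beta and 8.49, 8.08 and 6.33 in vehicle libraries.

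**Figure D3:**
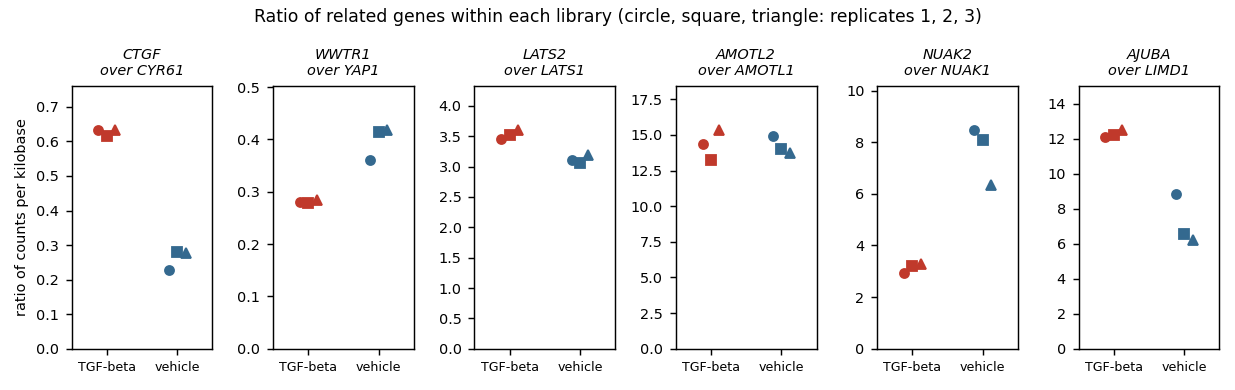
Ratio of counts per kilobase of each of 6 genes to its paralogue (linear axes starting at 0) in the 3 TGF-beta libraries, left in each panel, and the 3 vehicle libraries, right. The ranges are separate in every panel but that of AMOTL2 to AMOTL1, with 13.2 to 15.4 in TGF-beta and 13.8 to 14.9 in vehicle.

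For each of the 6 ratios an exact 2-sided permutation test of the 3 against 3 log2 ratios gave a p of 0.1, the smallest it allows, except for AMOTL2 to AMOTL1 with a p of 1. Adjusted over the 6 pairs by Benjamini-Hochberg, these p-values were 0.12 and 1.

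Levels per kilobase order the 10 genes differently in the 2 conditions. In TGF-beta libraries CYR61 was highest, at 172 ± 2.61 CPM per kilobase, followed by CTGF at 108 ± 3.28, AXL at 85.0 ± 2.17 and AJUBA at 59.4 ± 0.721. ANKRD1, YAP1 and AMOTL2 came next, at 49.9, 33.1 and 24.3 CPM per kilobase, and LATS2, NUAK2 and WWTR1 were lowest, at 14.3, 13.9 and 9.30, LATS2 and NUAK2 overlapping. In vehicle libraries CYR61 at 150.1 ± 23.1 and AXL at 135 ± 21.9 CPM per kilobase overlapped at the top, AJUBA at 68.3 overlapped ANKRD1 at 60.2, and CTGF at 39.7 overlapped YAP1 at 32.5. CTGF ranked 2 of 10 in TGF-beta libraries and 5 of 10 in vehicle libraries.

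**Figure D4:**
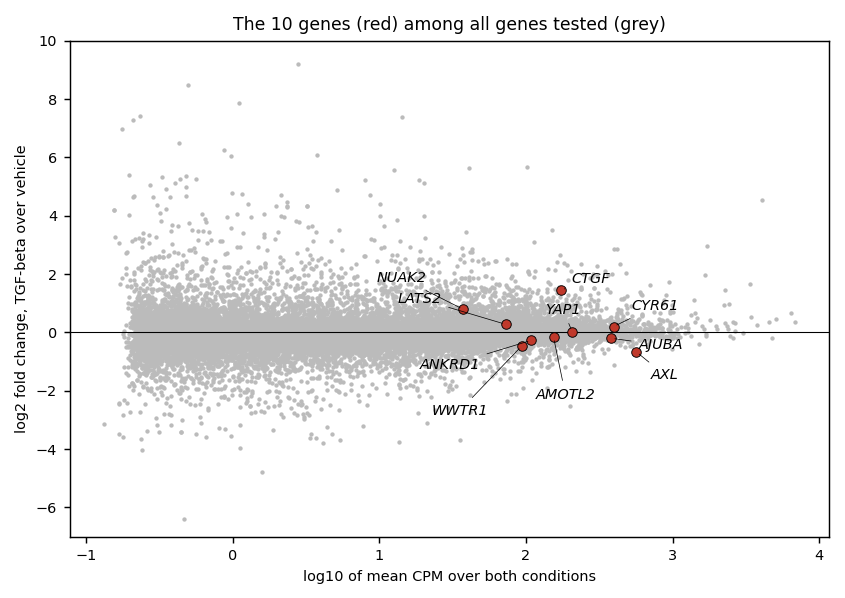
Log2 fold change (TGF-beta minus vehicle) against log10 of the mean CPM for all 20992 tested genes in grey, with the 10 genes marked. The 10 sit among abundant genes and, apart from CTGF, NUAK2 and AXL, within 0.5 of 0 on the log2 axis.

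The other Hippo pathway genes were taken as a list of 49, of which 46 were tested, and 16 were called higher and 10 lower (median log2 fold change 0.07), where 19.7% of all genes tested were higher and 20.4% lower. With library totals alone 13 of the list were higher and 16 lower, where 12.9% of all genes were higher and 34.7% lower. TEAD factors, the DNA-binding partners of YAP and TAZ, rose together: TEAD1 by 0.35, TEAD2 by 0.56, TEAD3 by 0.33 and TEAD4 by 0.24 on the log2 scale. TEAD1 had 235 ± 7.27 CPM in TGF-beta and 184 ± 9.83 CPM in vehicle libraries, and TEAD2 had 34.8 ± 1.38 CPM in TGF-beta and 23.6 ± 0.648 CPM in vehicle (SD, n = 3 each). TEAD4 was not called with library totals alone (log2 0.11, adjusted p = 0.105 in that edgeR fit), and TEAD2 shares 10.7% of its exon bases with the antisense gene CD37. The cofactor VGLL3, chosen after its values were seen, had 114, 103 and 106 CPM in TGF-beta and 79.2, 41.2 and 39.7 CPM in vehicle libraries. It was not called by edgeR (adjusted p = 0.0696), and was called higher by DESeq2 (adjusted p = 0.0150), in both RPKM fits by limma and without vehicle 1.

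Among 10 core kinases and adaptors, 2 were called higher (MOB1A and TAOK2) and 2 lower (STK4 and MOB1B), a share close to the 40.1% of all genes, with no log2 change beyond 0.27 in size. With library totals alone 0 were called higher and 3 lower (STK4, MOB1B and MAP4K4), where 12.9% of all genes were higher and 34.7% lower. STK4, which encodes MST1, fell by 0.27 on the log2 scale, to 100.3 ± 0.317 CPM in TGF-beta against 121 ± 2.34 CPM in vehicle libraries (SD, n = 3 each). MOB1A, the LATS cofactor, rose by 0.19 and was not called with library totals alone (adjusted p = 0.241 by edgeR) or in the RPKM fits. TAOK2, an upstream kinase, had a log2 value of 0.12 and an adjusted p of 0.0491 by edgeR, and of -0.01 with library totals alone. It was also not called by DESeq2, with no filter, in the RPKM fits, or without vehicle 2, vehicle 3, TGF-beta 2 or TGF-beta 3. MOB1B was not called by DESeq2 or without vehicle 2, TGF-beta 2 or TGF-beta 3. On the same strand, DCK shares 2.26% of the exon bases of MOB1B and had 92.5% of its count. Of 13 upstream membrane and scaffold genes, 4 were higher and 6 lower, where 19.7% of all genes tested were higher and 20.4% lower. The fall of WWC3 was no longer called when any 1 library other than vehicle 1 was left out. DCHS1, also lower, had 0.778 CPM in TGF-beta and 1.18 CPM in vehicle. It was not called by DESeq2 or without vehicle 2, vehicle 3, TGF-beta 1 or TGF-beta 3. FRMD6, a FERM-domain protein that can activate the pathway, had 790.4, 759 and 756 CPM in TGF-beta and 159, 204 and 198 CPM in vehicle libraries, which did not overlap (log2 2.04, SE 0.09, Benjamini-Hochberg adjusted p = 1.18e-06 by edgeR). The 8 tested subunits of STRIPAK, the phosphatase complex that opposes MST1 and MST2, had log2 fold changes of -0.10 to 0.11, and 0 were called, 0 had an unadjusted p below 0.05 in edgeR, and 0 were called by DESeq2. Over all genes, 40.1% were called by edgeR and 30% by DESeq2. CPM ranges were separate for 3 of the 8, against 52.3% of all genes tested. HSPE1-MOB4, on the same strand, shares 16.2% of the exon bases of MOB4 and had 192% of its count. SIKE1 was called lower with library totals alone and in both RPKM fits by limma (adjusted p = 0.0169 and 0.0170), and STRN3 with library totals alone.

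**Figure D5:**
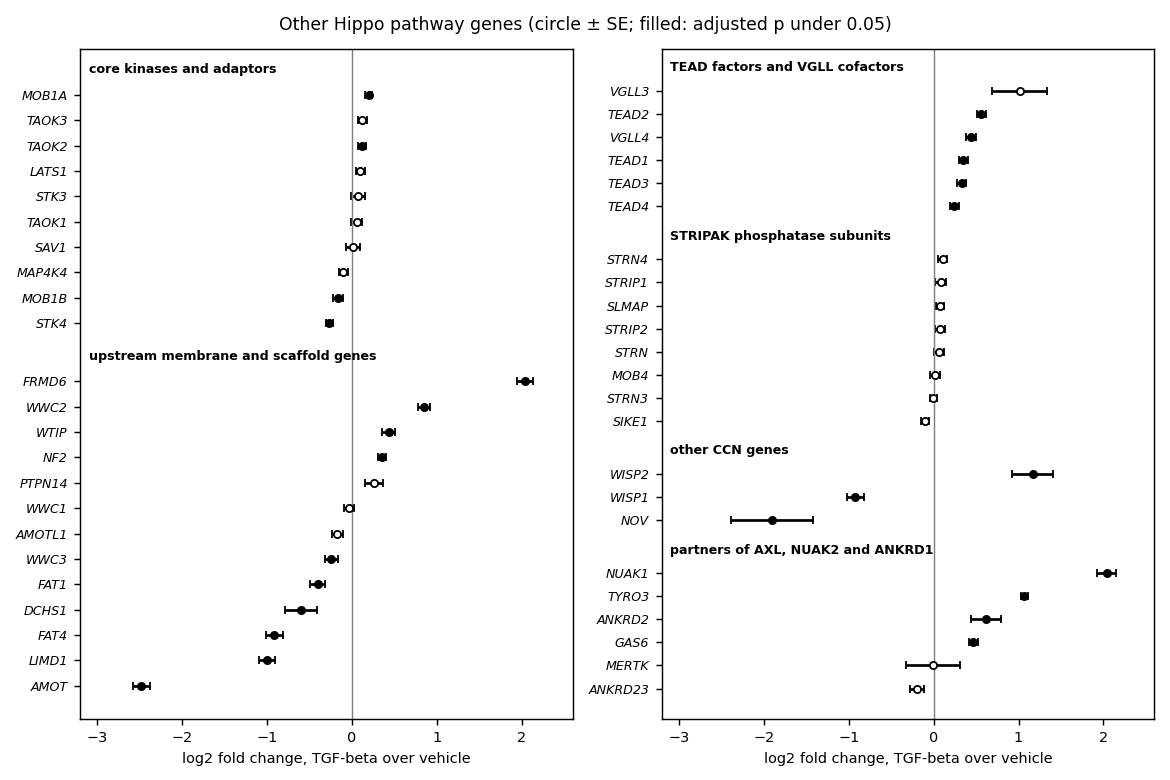
Log2 fold change (TGF-beta minus vehicle) of the other Hippo pathway genes by subgroup, with error bars of 1 standard error and circles filled where called. FRMD6 and NUAK1 are the largest rises, at 2.04 each, AMOT the largest fall, at -2.48, and the STRIPAK subunits lie between -0.10 and 0.11.

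A wider list of 36 YAP and TAZ target genes, of which 35 were tested, had 19 called higher and 8 lower (median log2 fold change 0.37), where 19.7% of all genes tested were higher and 20.4% lower. Among the 6242 genes at least as abundant as NUAK2, 49.1% were called in either direction, and some listed genes are scarcer than that. The list was chosen with earlier results of these data known, so its counts are a description only. Among the rises were TGFBI, TNS1 and IGFBP3, at 2.97, 2.89 and 2.06 on the log2 scale. TGFBI, which encodes a secreted matrix protein, had 3034 ± 68.4 CPM in TGF-beta and 386 ± 39.8 CPM in vehicle libraries (SD, n = 3 each). Several genes of the list, TGFBI among them, are also known as TGF-beta targets. The largest called falls were in MYOF at -0.91 and ITGB2 at -0.88. NT5E, DKK1 and DUSP1, chosen after their values were seen, were not called in the edgeR fit with TMM factors and filterByExpr. Without vehicle 1, NT5E was called lower, and DKK1 and DUSP1 higher, in a fit that called 50.4% of all genes. With all 6 libraries, DUSP1 was called higher by DESeq2 (adjusted p = 0.00935), by edgeR with the filter of 1 CPM in 3 samples (adjusted p = 0.0476) and in both RPKM fits by limma, and DKK1 was called higher in both RPKM fits (adjusted p = 0.0447 and 0.0463 by limma). PTPN14 and TEAD1 are in both lists.

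Over the 6 libraries, the protein-coding genes of at least 5 CPM (11360 compared) whose log2 CPM was most like that of YAP1 were GTF2A2, DHX36 and GGCT, with Pearson's r of 0.999, 0.996 and 0.994. For CTGF they were CACNG4, GALNT10 and HRH1, each at r of 0.999, and 921 genes reached 0.95 against 66 for YAP1. The 6 points share condition and library, so r describes likeness across these libraries alone.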

How the data were processed

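RNA sequencing of 6 H69 samples was taken from 1 deposited gene table. Per the submitters' processing notes, the tools were bcl2fastq, STAR 2.6.1 and featureCounts of Subread, with build hg38; the strand setting, multi-mapping and annotation release are not given in the sources used here. The count columns hold whole reads per gene, not normalized, as the authors deposited them. The RPKM columns, per the file headers, are RPKM by the authors, and a log2 scale of these deposited values was computed for 2 alternatives alone.

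Counts were fitted with edgeR 4.0.16 in R 4.3.3 (TMM, filterByExpr with a minimum count of 10, robust quasi-likelihood, no block), adjusted by Benjamini-Hochberg over 20992 genes and called at an adjusted p below 0.05. The fit was tested on simulated data with few changed genes and no library that stood apart. That simulation differs from these data on both points, so it does not show how the fit behaves here. Standard errors are from the F statistic. Members and lists were chosen with earlier results of these data known. Named genes were the 10 members, the TEAD factors, the paralogues, the largest called rise and fall of each subgroup, 4 rises and 2 falls of the wider list, and the 3 genes most like YAP1 and CTGF; other examples were chosen after seeing the values. A result that this rule selects is not reported here. Alternatives were RLE factors, library totals, no filter, a filter of 1 CPM in 3 samples, DESeq2 1.42.0, limma 3.58.1 on log2 RPKM (pseudocount 1 or 0.1, genes averaging 0.5 RPKM or more), the replicate block, and each library left out. Exon overlaps used GENCODE release 29, and CPM per kilobase the deposited gene length.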

Additional observations from a re-analysis of the deposited data

How the results depend on the processing

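The direction of WWTR1, CTGF, CYR61, ANKRD1, AMOTL2, AXL, LATS2, AJUBA and NUAK2 was the same under every alternative run. YAP1 reversed: its log2 fold change was -0.10 with library totals alone, -0.053 and -0.056 from RPKM with a pseudocount of 1 and 0.1, and ranged from -0.017 to 0.11 when 1 library was left out; the cause was not tested. Library totals alone moved the median of all genes to -0.14, the calls over all genes to 2698 higher and 7282 lower (4145 and 4278 with TMM), and the other Hippo genes called lower to 16 instead of 10; the RPKM fits called 2406 and 2402 genes higher and 4510 and 4518 lower. The AMOTL2 to AMOTL1 log2 ratio ranged from -0.045 to 0.065 with 1 library left out, and the cause was not tested. NOV had adjusted p-values of 0.0597 and 0.0555 in edgeR without TGF-beta 1 or 2. Replicate numbers are shared between conditions, but deviations of same-numbered libraries correlated at only 0.0869, 0.0499 and 0.0530, so they were not taken as pairs. Each TGF-beta library still correlated best with the vehicle library of its own number, a hint from the data alone. With the replicate block, 4247 genes were called higher and 4330 lower, and the same 3 members higher and 4 lower; AMOTL1 was called (adjusted p = 0.0476, edgeR). The 3 libraries per condition limit what can be called.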
